A study of Mus musculus with 8 samples.

Results

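The genes described here are 31 that mark mouse spermatogonia, the germ cells at the base of the seminiferous tubule. They were chosen by name for their known roles, with earlier results of these data known, out of 56748 Ensembl genes counted in adult mouse testis. By role, 12 were assigned to stem cells, 7 to progenitors and 7 to differentiating spermatogonia, and 5 are surface and cell cycle genes shared between these stages. The classes are not exclusive, and some stem and progenitor genes, Utf1 and Uchl1 among them, are made in both stages. Every one of the 31 had a row in the count table, and 29 had enough reads to be tested. The RNA came from whole adult testis of 2 genotypes, with 4 libraries labelled Ak9 knockout (Ak9-/-) and 4 labelled wild type. Ak9 encodes an adenylate kinase, an enzyme that passes phosphate groups between adenine nucleotides. The labels give no strain and no age beyond adult, and name neither the allele nor whether each library came from its own animal, so each p-value reflects variation between libraries that could be technical.

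Spermatogonial stem cells are few in number and either renew themselves or give rise to progenitors, which still divide without committing. GDNF from Sertoli cells drives the transcription of several stem cell genes, among them Etv5, Bcl6b and Lhx1. Progenitors switch on Neurog3 and Lin28a, and retinoic acid then moves them into the differentiating stages, where Sohlh1, Sohlh2 and Kit act before meiosis begins. In whole testis these cells are greatly outnumbered by spermatocytes and spermatids, so their transcripts form a small share of the RNA.

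Library totals ran from 18062780 to 24415587 counts. Levels are given as CPM, counts scaled to a common total of tested genes by TMM (factors 0.903 to 1.13), and 3 counts correspond to 0.121 to 0.175 CPM. Ak9 itself had 69.3, 116, 101 and 40.6 CPM in labelled knockouts 1 to 4, against 108, 115, 122 and 107 CPM in wild types 1 to 4. Labelled knockout 2 thus lies within the wild-type range, and the libraries are named by their labels throughout. The log2 fold change of Ak9 was -0.47 with a standard error (SE) of 0.25 (edgeR adjusted p = 1.00; an exact permutation test, two-sided, gave p = 0.143, with 0.0286 the smallest it can give). The labelled knockouts also differed more among themselves: Spearman correlations over tested genes were 0.957 to 0.977 between labelled knockouts and 0.991 to 0.993 between wild types. Genes of elongating spermatids, which define adult testis, summed to between 8420 and 20400 CPM in labelled knockouts and between 13300 and 16800 CPM in wild types.

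No spermatogonial gene passed the test between the genotypes. Over all 21805 genes tested, edgeR's quasi-likelihood test called 4 at a Benjamini-Hochberg adjusted p under 0.05, which is 0.0183% of them, and 0 of the 29 members were among these. DESeq2 called 46 genes, 0.211%, and again 0 members. At an unadjusted edgeR p under 0.05, 1 member (Foxc2) was lower, where 1.79% of all genes were, and 0 members were higher, where 1.25% of all genes were. The 2 groups overlapped in each of the 29 members, while 2.3% of all genes had groups that did not overlap. In whole testis RNA, fewer cells of a type and less RNA per cell cannot be told apart.

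The size of the effects was bounded more tightly for the abundant members than for the sparse ones. For 24 of the 29 members the 95% interval of the log2 fold change lay between -1 and 1, within 2-fold either way. The interval left out 0 for 1 member, Foxc2. Of the 29, 18 were below 0, against 47.1% of all genes, and the median over the 29 was -0.10, against 0.01 over all genes. By role, 7 of 11 tested stem genes, 6 of 6 tested progenitor genes, 4 of 7 differentiating genes and 1 of 5 surface and cell cycle genes were below 0, with median log2 fold changes of -0.13, -0.22, -0.04 and 0.06 in that order. The differences between these classes were not tested.

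**Figure D1:**
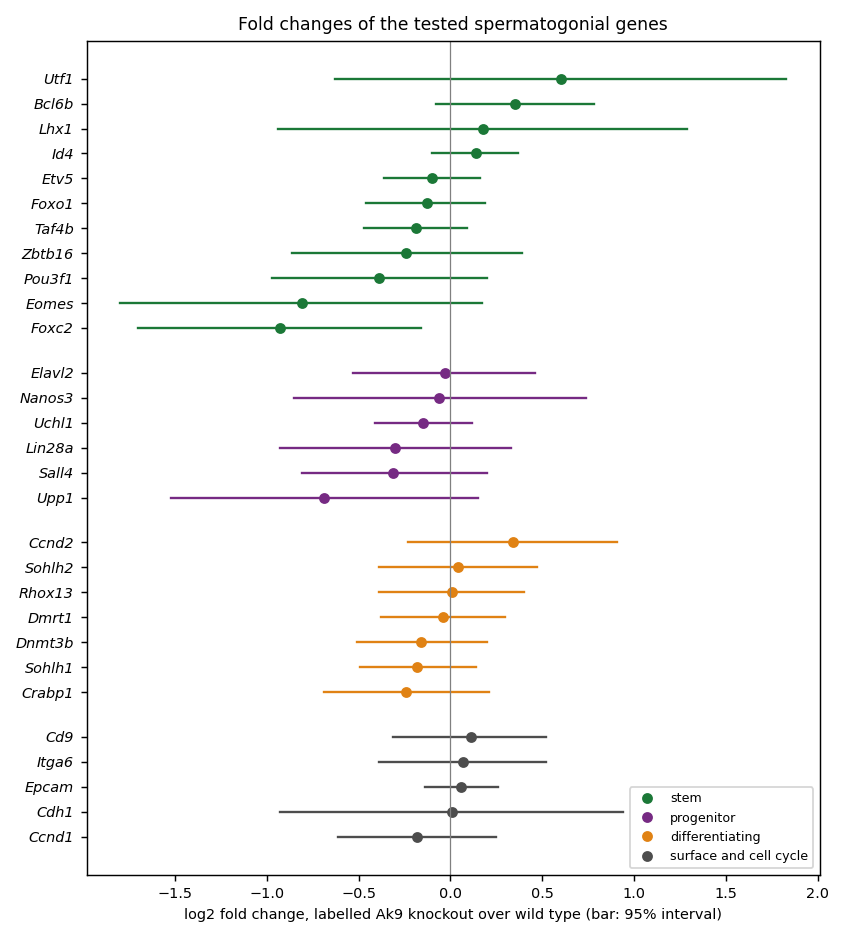
Log2 fold change of each tested spermatogonial gene, labelled Ak9 knockout over wild type, with its 95% interval from edgeR (4 libraries a group), grouped by role. Foxc2, at -0.93, is the 1 gene whose interval leaves out 0. The widest intervals are those of Utf1 and Lhx1, both among the genes with a mean under 50 counts per library.

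Compared per length (CPM per kilobase of exon), the members covered a wide range in wild-type testis. Uchl1, a deubiquitinase of the undifferentiated pool, was highest at 38.4 ± 2.43 CPM per kilobase (SD, n = 4), with 34.7 in labelled knockouts. Next in wild types came Epcam at 18.3 ± 1.16 and Dmrt1 at 12.7 ± 0.959 CPM per kilobase, then Id4 at 10.1 ± 0.506. From Uchl1 down to Id4 each step was larger than the SDs on either side of it. Below Id4 the neighbours ran together: Etv5 at 8.83 ± 0.532, Sohlh2 at 8.72 ± 1.14, Crabp1 at 8.34 ± 1.74 and Taf4b at 8.11 ± 0.724 CPM per kilobase did not differ beyond their spread.

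The stem class held both well measured and barely measured genes. Against the levels of Id4 and Etv5, Foxc2 had 0.292 ± 0.0613, Eomes 0.198 ± 0.0420 and Nanos2 0.036 ± 0.0362 CPM per kilobase in wild types. Progenitor genes other than Uchl1 were low as well: Lin28a had 1.74 ± 0.206, Sall4 0.964 ± 0.0726 and Neurog3 0.123 ± 0.0639 CPM per kilobase. Among differentiating genes, Ccnd2 was lowest at 0.918 ± 0.123 CPM per kilobase. Exon lengths are those of another annotation release than the authors', so the order between close neighbours depends on the gene models.

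**Figure D2:**
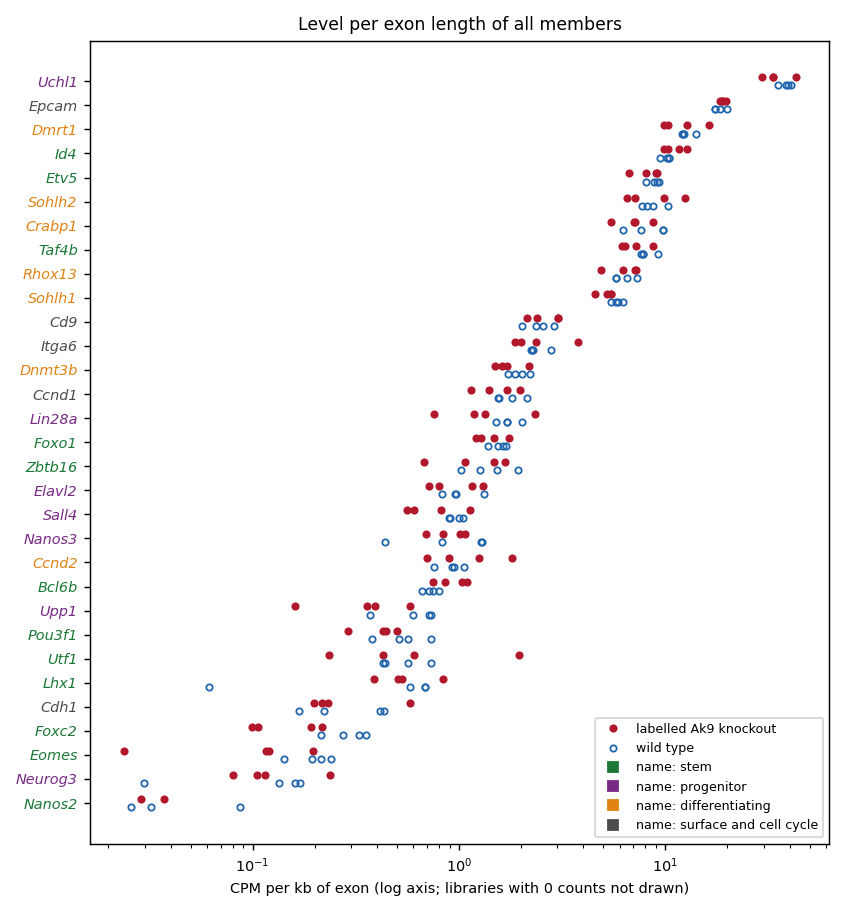
Level of each of the 31 genes in CPM per kilobase of exon (log axis) in each labelled Ak9 knockout and wild-type library, ordered by the wild-type mean. Each mark is 1 library, and libraries without counts of a gene are not drawn. Uchl1 leads with means of 34.7 in labelled knockouts and 38.4 in wild types, and Nanos2 is last.

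In the stem class, Foxc2 on chromosome 8 had the lowest fold change. It encodes a forkhead factor found in quiescent stem cells. In labelled knockouts 1 to 4 Foxc2 had 0.270, 0.289, 0.592 and 0.525 CPM, against 0.962, 0.584, 0.890 and 0.750 CPM in wild types 1 to 4. Labelled knockout 3 at 0.592 CPM was above wild type 2 at 0.584 CPM, and all other labelled knockouts were below every wild type. The Foxc2 levels rest on 6, 6, 12 and 9 counts in labelled knockouts and 18, 13, 22 and 15 counts in wild types. Its log2 fold change was -0.93 with an SE of 0.35 and an interval of -1.70 to -0.16 (edgeR unadjusted p = 0.0225, adjusted p = 1.00). Leaving out labelled knockout 1 or 2, or wild type 1 or 3, put the unadjusted p between 0.0589 and 0.0648.

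Utf1, a chromatin-bound protein of undifferentiated spermatogonia on chromosome 7, had the highest fold change of the class, and 1 library set it. Utf1 had 2.39, 0.289, 0.740 and 0.525 CPM in labelled knockouts 1 to 4, against 0.695, 0.539, 0.526 and 0.900 CPM in wild types 1 to 4. The 53 counts in labelled knockout 1 give a counting interval of 1.79 to 3.12 CPM, and the 7 other libraries held between 6 and 18 counts. This gave a log2 fold change of 0.60 with an SE of 0.56 (edgeR adjusted p = 1.00), or of -0.35 without labelled knockout 1.

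Id4, an inhibitor of helix-loop-helix transcription factors on chromosome 13, had the highest level per length of the class. In labelled knockouts 1 to 4 it had 39.6, 44.7, 49.1 and 38.0 CPM, against 36.1, 40.1, 40.3 and 39.4 CPM in wild types 1 to 4. Labelled knockouts 2 and 3 were above every wild type, whereas the wild types enclosed labelled knockouts 1 and 4. The fitted difference was 0.14 on the log2 scale with an SE of 0.11 and an interval of -0.10 to 0.37. For Id4, as for the other stem genes, the part of stem cells in these whole-testis levels was not tested.

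Of the GDNF-regulated genes, Lhx1, a LIM homeobox factor, had a wild-type library that stood apart. It had 2.16, 2.07, 3.40 and 1.57 CPM in labelled knockouts 1 to 4, against 2.78, 2.78, 2.35 and 0.250 CPM in wild types 1 to 4. Wild type 4 held 5 counts, with a counting interval of 0.0812 to 0.583 CPM, below the interval of every other library, the lowest of which began at 1.04 CPM. The log2 fold change of Lhx1 was 0.18 with an SE of 0.51, and -0.19 without wild type 4. Bcl6b, a zinc finger repressor, had log2 0.35 with an SE of 0.19, and Etv5, an ETS factor, -0.10 with an SE of 0.12. Lhx1, Bcl6b and Etv5 were singled out after their values were seen.

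Eomes, a T-box factor of a subset of single stem cells, was lowest of all 8 libraries in labelled knockout 3, which for most members was the highest of the 4 labelled knockouts. It held 11, 10, 2 and 14 counts in labelled knockouts 1 to 4, against 11, 18, 22 and 20 counts in wild types 1 to 4. Labelled knockout 3 thus stood at 0.0987 CPM, against 0.588 to 1.00 CPM in the wild types. The log2 fold change was -0.81 with an SE of 0.45 (edgeR unadjusted p = 0.0974). Eomes was also chosen after its values were seen. The other 4 tested stem genes were closer to 0. Log2 fold changes were -0.39 for the POU factor Pou3f1, -0.24 for Zbtb16, a repressor needed for self-renewal, -0.19 for the TFIID subunit Taf4b and -0.13 for the forkhead factor Foxo1. Zbtb16 had -0.04 without labelled knockout 1, -0.05 without wild type 2 and -0.44 without labelled knockout 3.

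Nanos2, an RNA-binding protein that keeps stem cells from differentiating, was below the low-count filter. It held 1, 0, 0 and 1 counts in labelled knockouts 1 to 4, against 0, 3, 1 and 1 counts in wild types 1 to 4. Summed, these are 2 counts or 0.0249 CPM in labelled knockouts (95% counting interval 0.00302 to 0.0899) and 5 counts or 0.0583 CPM in wild types (0.0189 to 0.136). The intervals overlap and cover counting error only, and the difference between the groups was not tested at this depth. On the other strand, Nanos2 shares 766 exon bases with Gm45058, and reads of such a pair are not told apart here.

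**Figure D3:**
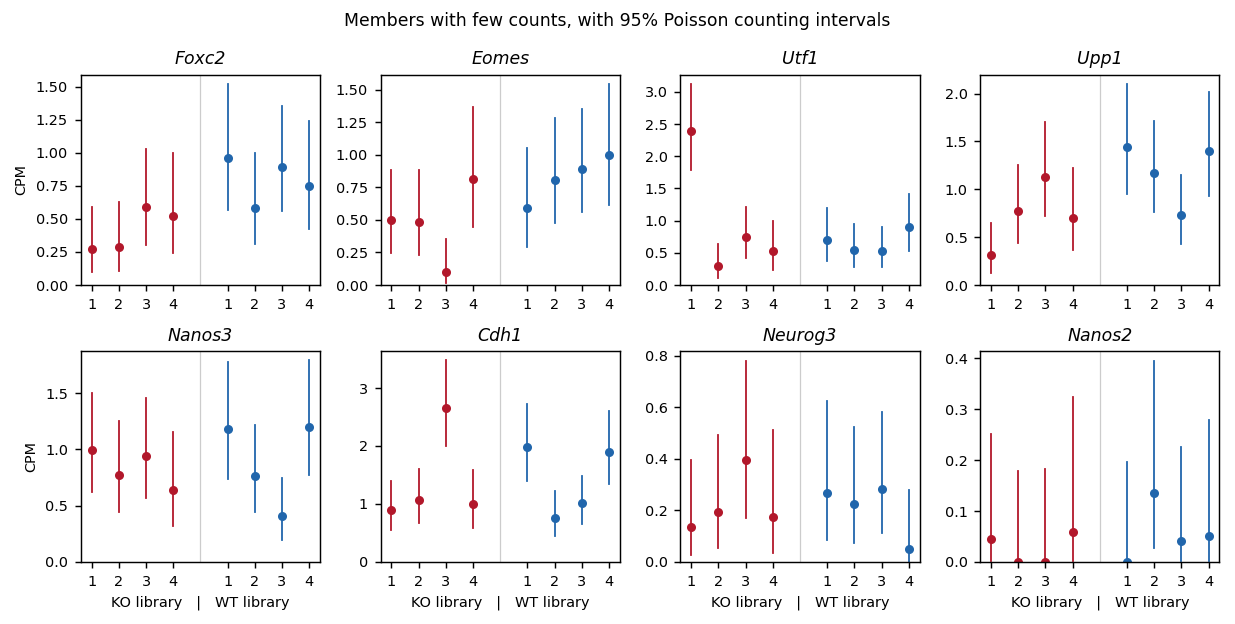
CPM with 95% counting intervals in each library (KO, labelled Ak9 knockout 1 to 4, and WT, wild type 1 to 4). Foxc2, Eomes, Utf1, Upp1, Nanos3, Cdh1, Neurog3 and Nanos2 are drawn. Of the 10 spermatogonial genes with a mean under 50 counts, Lhx1 and Pou3f1 are not drawn. Utf1 in labelled knockout 1, at 2.39 CPM, lies clear of the other libraries of the gene.

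In the progenitor class, no tested gene had a log2 fold change above 0, and none passed the test. Upp1, uridine phosphorylase, on chromosome 11, had the lowest value. It had 0.316, 0.772, 1.13 and 0.70 CPM in labelled knockouts 1 to 4, against 1.44, 1.17, 0.728 and 1.40 CPM in wild types 1 to 4. Wild type 3 lies among the labelled knockouts. For Upp1 the log2 fold change was -0.69 with an SE of 0.38 (edgeR unadjusted p = 0.0967, adjusted p = 1.00), from 7 to 23 counts in labelled knockouts and 18 to 28 counts in wild types.

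Uchl1, on chromosome 5, was the most precisely measured progenitor gene. In labelled knockouts 1 to 4 it had 54.2, 54.3, 70.0 and 47.9 CPM, against 64.4, 62.4, 57.4 and 66.7 CPM in wild types 1 to 4. Labelled knockout 3 was above every wild type and the other labelled knockouts were below all of them. For Uchl1 the log2 fold change was -0.15 with an SE of 0.12 and an interval of -0.41 to 0.12. Elavl2, an RNA-binding protein of the Hu family on chromosome 4, was nearest to 0: it had 6.67, 10.9, 9.57 and 5.95 CPM in labelled knockouts 1 to 4, against 6.84, 11.0, 7.97 and 8.0 CPM in wild types 1 to 4, with a log2 fold change of -0.03 and an SE of 0.23.

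The order of libraries seen for Uchl1 also held for the RNA-binding protein Lin28a, which blocks the maturation of let-7 microRNAs, and for the zinc finger factor Sall4. Lin28a had 4.73, 5.36, 9.37 and 3.03 CPM in labelled knockouts 1 to 4, against 6.04, 8.04, 6.84 and 6.85 CPM in wild types 1 to 4. Sall4 had 3.34, 4.54, 6.27 and 3.09 CPM in labelled knockouts 1 to 4, against 4.97, 5.03, 5.54 and 5.80 CPM in wild types 1 to 4. For both, labelled knockout 3 was the highest of the 8 libraries and the other labelled knockouts lay below all wild types; both were named after their values were seen. Nanos3, a relative of Nanos2, had log2 -0.06 with an SE of 0.36.

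Neurog3, the helix-loop-helix factor that marks progenitors, was below the filter. It held 3, 4, 8 and 3 counts in labelled knockouts 1 to 4, against 5, 5, 7 and 1 counts in wild types 1 to 4. The sums were 18 counts in each group, or 0.224 CPM in labelled knockouts (95% counting interval 0.133 to 0.354) and 0.210 CPM in wild types (0.124 to 0.332). On the other strand, Neurog3 shares 273 exon bases with Fam241b, and reads of such a pair are not told apart here.

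Among genes of differentiating spermatogonia, none passed the test and the fold changes ran from -0.24 to 0.34. Ccnd2, the D-type cyclin of dividing spermatogonia, on chromosome 6, was at the top. In labelled knockouts 1 to 4 it had 8.43, 11.7, 17.0 and 6.59 CPM, against 8.66, 8.89, 9.91 and 7.10 CPM in wild types 1 to 4. Labelled knockouts 2 and 3 were above every wild type, labelled knockout 1 was among them and labelled knockout 4 was below all. The log2 fold change of Ccnd2 was 0.34 with an SE of 0.26, and 0.04 without labelled knockout 3.

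Crabp1, a retinoic acid-binding protein on chromosome 9, was at the bottom. It had 4.37, 5.69, 6.96 and 5.66 CPM in labelled knockouts 1 to 4, against 7.80, 4.98, 6.11 and 7.85 CPM in wild types 1 to 4. The wild types spread as widely as the labelled knockouts, and the log2 fold change was -0.24 with an SE of 0.21. Dmrt1, a DM-domain factor that holds spermatogonia back from meiosis, on chromosome 19, had the highest level per length of the class. In labelled knockouts 1 to 4 it had 26.6, 33.2, 42.1 and 25.6 CPM, against 31.4, 31.9, 31.5 and 36.5 CPM in wild types 1 to 4. Both the highest and the lowest of the 8 Dmrt1 levels were those of labelled knockouts, and the log2 fold change was -0.04 with an SE of 0.15. The helix-loop-helix factors Sohlh1 and Sohlh2 had -0.18 and 0.04, the de novo DNA methyltransferase Dnmt3b had -0.16, and the X-linked homeobox gene Rhox13 had 0.01.

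The surface and cell cycle genes were also within their spread. Cd9, a tetraspanin on chromosome 6, had the highest fold change. It had 4.87, 6.18, 6.17 and 4.37 CPM in labelled knockouts 1 to 4, against 5.24, 4.85, 4.13 and 5.90 CPM in wild types 1 to 4, with log2 0.11 and an SE of 0.19. Ccnd1, cyclin D1, on chromosome 7, had the lowest. In labelled knockouts 1 to 4 it had 5.41, 8.01, 9.33 and 6.59 CPM, against 7.32, 8.53, 7.28 and 10.1 CPM in wild types 1 to 4, with log2 -0.18 and an SE of 0.20. Ccnd1 shares 1100 exon bases with LTO1 on the other strand, the longest such overlap among the 12 members that have one.

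Epcam, an adhesion protein on chromosome 17, varied least of all members between the labelled knockouts. It had 41.5, 43.0, 42.0 and 40.2 CPM in labelled knockouts 1 to 4, against 43.6, 38.3, 38.1 and 40.2 CPM in wild types 1 to 4. The SD of its log2 CPM was 0.04 in labelled knockouts and 0.09 in wild types, and the log2 fold change was 0.06 with an interval of -0.14 to 0.26. Itga6, a laminin receptor subunit, had log2 0.07, and the E-cadherin gene Cdh1 had 0.01, or -0.51 without labelled knockout 3.

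The most regular pattern was the order of the labelled knockouts among themselves. Labelled knockout 3 was the highest of the 4 for 20 of the 29 members, 69.0%, where the share over all genes was 36.7%. The lowest was labelled knockout 1 for 13 members and labelled knockout 4 for 14, together 93.1%, where the share over all genes was 47.7%. The 9 members that were not highest in labelled knockout 3 were Bcl6b, Eomes, Utf1, Nanos3, Elavl2, Sohlh1, Rhox13, Cd9 and Epcam. Against the wild types, labelled knockout 3 was above all 4 for 44.8% of members and 33.5% of all genes. Labelled knockout 4 was below all 4 for 58.6% of members and 33.9% of all genes, and labelled knockout 1 for 62.1% of members and 32.0% of all genes. The members are not independent of one another, and these shares are a description.

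**Figure D4:**
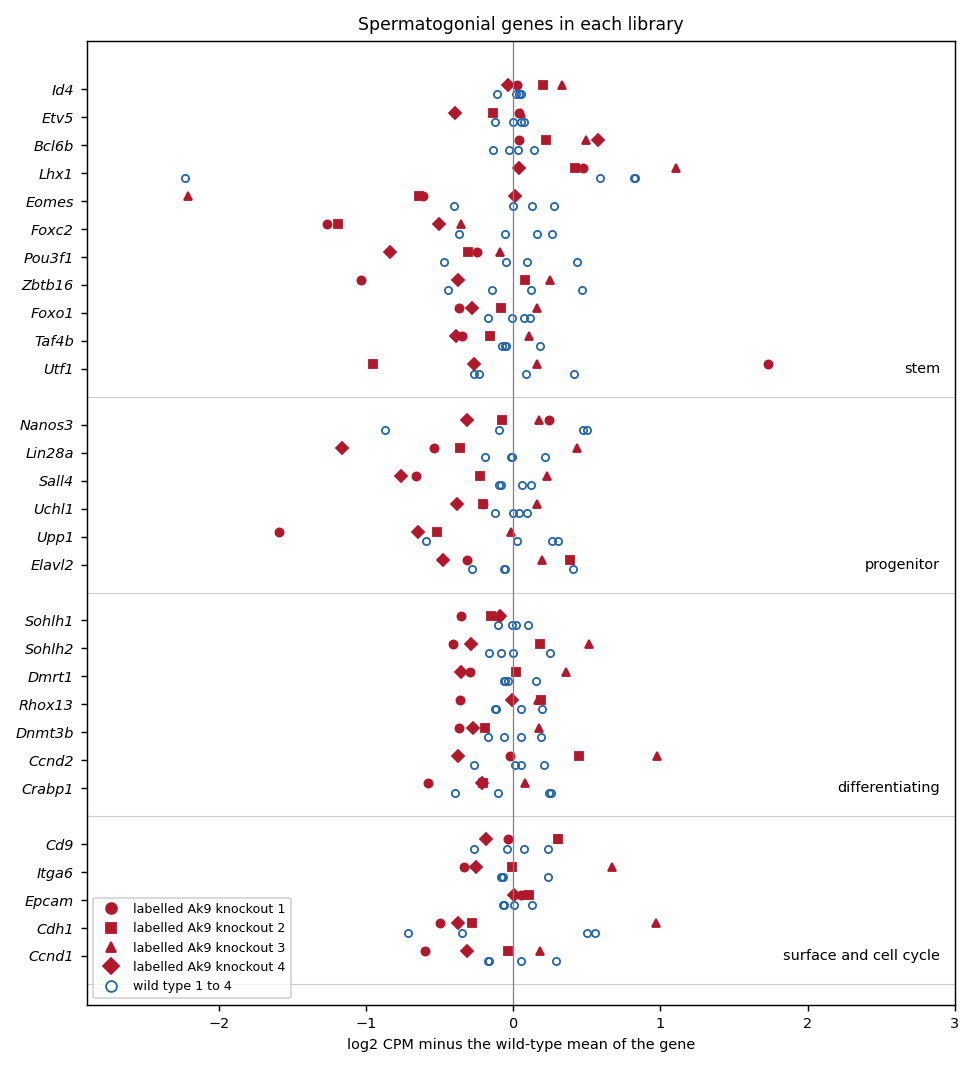
Level of each tested spermatogonial gene in each library, as log2 CPM minus the wild-type mean of the gene; filled red marks are labelled Ak9 knockouts 1 to 4 and open blue circles are wild types. Labelled knockout 3 (triangles) is the highest of the 4 labelled knockouts for 20 of 29 genes, and labelled knockouts 1 and 4 hold the lowest value for 27.

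Summed over the 31 members, the level was 346, 396, 478 and 330 CPM in labelled knockouts 1 to 4, against 387, 416, 389 and 413 CPM in wild types 1 to 4. A class score is the mean log2 CPM over the class in 1 library, less the mean of the wild types. Progenitors stood at -0.51, -0.17, 0.20 and -0.63 in labelled knockouts 1 to 4, against 0.04, 0.08, -0.27 and 0.15 in wild types 1 to 4. Differentiating genes stood at -0.34, 0.04, 0.31 and -0.23 in labelled knockouts, against -0.03, -0.05, 0.02 and 0.06 in wild types. In each of these classes labelled knockout 3 was the highest of the 8 libraries, and labelled knockouts 1 and 4 were the lowest.

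The stem score did not follow this order, although most single stem genes did. Among the labelled knockouts, 8 of the 11 tested stem genes were highest in labelled knockout 3. Labelled knockout 1 was lowest for 4 of the 11 and labelled knockout 4 for 5. Stem genes scored -0.14, -0.23, 0.00 and -0.22 in labelled knockouts 1 to 4, against 0.00, 0.08, 0.02 and -0.09 in wild types 1 to 4. Single sparse genes moved this score in both directions. Without Eomes it was -0.10, -0.19, 0.22 and -0.25 in labelled knockouts 1 to 4, against 0.04, 0.09, 0.00 and -0.13 in wild types 1 to 4. Without Utf1 it was -0.33, -0.16, -0.02 and -0.22 in labelled knockouts, against -0.01, 0.11, 0.04 and -0.14 in wild types. Without Lhx1 it was -0.20, -0.30, -0.11 and -0.25 in labelled knockouts, against -0.09, 0.01, -0.04 and 0.12 in wild types, so the groups overlapped with either of the first 2 genes left out but not with Lhx1 left out. These 3 genes were chosen after their values were seen. Surface and cell cycle genes stood at -0.28, 0.01, 0.44 and -0.22 in labelled knockouts, against 0.10, -0.11, -0.19 and 0.19 in wild types. In all 4 class scores over their tested genes the groups overlapped.

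Markers of other cell types moved between the same libraries. All 12 Sertoli markers tested were highest in labelled knockout 3 among the labelled knockouts, and 10 of the 12 were lowest in labelled knockout 4. They scored -0.28, -0.03, 0.48 and -0.64 in labelled knockouts 1 to 4 and between -0.10 and 0.11 in wild types, and their sum was 1170, 1570, 2150 and 1090 CPM in labelled knockouts against 1520 to 1700 CPM in wild types. Etv5, Dmrt1 and Itga6, named as examples and not as a full list, are made by Sertoli cells as well as by germ cells. In labelled knockout 3, Dmrt1 at 42.1 CPM and Itga6 at 34.1 CPM were above every wild type. Etv5 at 37.5 CPM was within its wild-type range of 33.2 to 38.1 CPM. Spermatid markers ran the other way. Round spermatid genes scored 0.35, 0.26, -0.70 and 0.16 in labelled knockouts 1 to 4 and between -0.17 and 0.07 in wild types, and elongating spermatid genes scored 0.40, 0.09, -0.81 and 0.47 in labelled knockouts and between -0.16 and 0.15 in wild types. Leydig markers scored -0.32, -0.43, 0.01 and -1.07 in labelled knockouts 1 to 4 and between -0.13 and 0.10 in wild types, and all 8 were below every wild type in labelled knockout 4. They summed to 1580, 1490, 1860 and 855 CPM in labelled knockouts, against 1670 to 1990 CPM in wild types. The spermatocyte score stayed between -0.10 and 0.13 in labelled knockouts and between -0.11 and 0.11 in wild types. The part of these markers in the members' order was not tested.

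**Figure D5:**
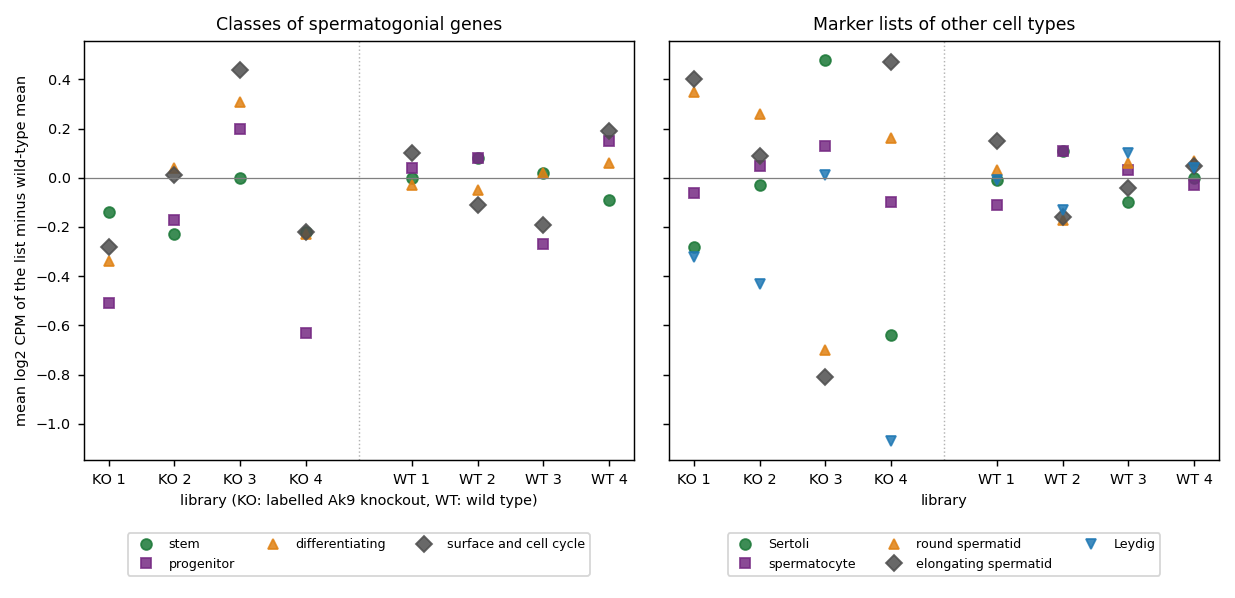
Score of each list in each library (KO, labelled Ak9 knockout; WT, wild type), as mean log2 CPM over the tested genes, less the mean of the wild types. In labelled knockout 3 progenitor, differentiating and surface genes and Sertoli markers are above 0 (0.20, 0.31, 0.44 and 0.48) while round and elongating spermatid markers are at -0.70 and -0.81.

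Labelled knockout 3 also carried transcripts of epididymal and rete epithelium. The 16 genes of that list summed to 21.1, 19.8, 236 and 47.9 CPM in labelled knockouts 1 to 4, against 17.8 to 19.8 CPM in wild types. Labelled knockout 3 exceeded all wild types for 10 of the 16, where the share over all tested genes was 33.5%. Labelled knockout 4 did so for 6 of the 16, and its share over all genes was not computed. Some of these rest on few counts or small gaps. Lcn9 held 3 counts in labelled knockout 3 and 2 in labelled knockout 4, and Rnase10 had 7.35 CPM in labelled knockout 4 against 7.06 CPM in wild type 1. The epididymal secretory gene Crisp1 made up 185 CPM of the sum in labelled knockout 3 and 24.4 CPM in labelled knockout 4, while Gpx5 and Cst11 were at 0 in labelled knockout 3. Cdh1, which such epithelium also makes, stood at 2.66 CPM in labelled knockout 3, against 0.902 to 1.06 CPM in the other labelled knockouts and 0.763 to 1.98 CPM in wild types. Epcam, likewise epithelial, was at 42.0 CPM there, within the range of the other libraries. The part of this epithelium in the members' values was not tested.

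Leaving out labelled knockout 3 gave lower fold changes for most members. Of the 29, 23 were then below 0, where 51.8% of all genes were, and the class medians were -0.26 for stem, -0.42 for progenitor, -0.21 for differentiating and -0.22 for surface and cell cycle genes. At an unadjusted p under 0.05, 7 members were lower, 24.1% of them, where 9.0% of all genes were: Foxc2, Taf4b, Lin28a, Sall4, Uchl1, Upp1 and Dnmt3b. The smallest adjusted p among members was 0.133, for Uchl1 at a log2 fold change of -0.28. Lin28a then had -0.67 (edgeR adjusted p = 0.134) and Sall4 had -0.55 (edgeR adjusted p = 0.153), so that 0 members passed. With labelled knockout 4 left out as well, 20 members were below 0, where 50.8% of all genes were, and 6 were lower at an unadjusted p under 0.05, 20.7% of them, where 6.49% of all genes were. With labelled knockout 4 alone left out, 15 members were below 0, where 47.8% of all genes were, and the progenitor median was -0.09. The differentiating median was above 0 without labelled knockout 1 (0.03), labelled knockout 4 (0.02) or wild type 4 (0.01).

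The spread between libraries of a group was close to that of the rest of the transcriptome. The SD of log2 CPM had a median of 0.33 in labelled knockouts and 0.18 in wild types over the members, and 0.33 in labelled knockouts and 0.14 in wild types over all genes. It was larger in labelled knockouts for 24 of the 29 members, 82.8%, and for 84.9% of all genes. Utf1 and Eomes varied most among labelled knockouts, with SDs of 1.14 and 0.95, and Lhx1 most among wild types, with an SD of 1.49.

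Promoter sequence is shown for 1 gene of each class. It is the member with the widest spread between labelled knockouts, among those that average 1 CPM or more and have a single RefSeq start. Any link between sequence and that spread was not tested. Sohlh1, Sohlh2 and Neurog3 belong to the helix-loop-helix family, which binds E-boxes (CANNTG, the same on both strands), and Id4 blocks such factors. The windows are the 250 bases before the RefSeq start, on GRCm38.p6, written 5′ to 3′ on the strand of the gene, with E-boxes in capitals.
Lhx1 promoter, chr11:84525535-84525784, - strand: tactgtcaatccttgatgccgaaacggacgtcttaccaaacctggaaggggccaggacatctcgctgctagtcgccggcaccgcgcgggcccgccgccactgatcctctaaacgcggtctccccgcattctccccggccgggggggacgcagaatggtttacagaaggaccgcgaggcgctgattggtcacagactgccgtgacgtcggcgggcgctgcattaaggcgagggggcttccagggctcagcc
Lin28a promoter, chr4:134018817-134019066, - strand: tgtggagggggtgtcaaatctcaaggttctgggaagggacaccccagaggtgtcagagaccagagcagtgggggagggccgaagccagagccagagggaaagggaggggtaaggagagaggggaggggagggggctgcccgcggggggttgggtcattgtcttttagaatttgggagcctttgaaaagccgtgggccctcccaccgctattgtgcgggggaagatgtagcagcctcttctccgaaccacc
Sohlh2 promoter, chr3:55181794-55182043, + strand: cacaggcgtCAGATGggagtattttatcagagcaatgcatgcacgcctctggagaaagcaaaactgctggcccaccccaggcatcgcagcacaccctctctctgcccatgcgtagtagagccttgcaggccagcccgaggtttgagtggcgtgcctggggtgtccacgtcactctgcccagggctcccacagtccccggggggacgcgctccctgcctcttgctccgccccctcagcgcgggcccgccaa
Cd9 promoter, chr6:125494761-125495010, - strand: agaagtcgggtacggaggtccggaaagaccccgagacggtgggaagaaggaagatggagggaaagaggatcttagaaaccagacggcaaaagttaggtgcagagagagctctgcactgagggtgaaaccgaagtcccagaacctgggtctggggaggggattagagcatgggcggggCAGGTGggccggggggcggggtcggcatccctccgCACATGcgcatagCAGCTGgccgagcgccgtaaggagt

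The Lhx1 and Lin28a windows hold 0 E-boxes, that of Sohlh2 holds 1 and that of Cd9 holds 3. Of the 20 members with a RefSeq promoter, 11 (55.0%) hold an E-box in this window, where 66.0% of all 27025 promoters do. The forkhead motif GTAAACA, searched on both strands because Foxo1 and Foxc2 are forkhead factors, is in 1 of the 20 (5.0%) and in 3.09% of all promoters. The windows of members are rich in G and C, with a median of 61.6% against 52.0% over all promoters. These matches describe the letters of the windows and say nothing about binding in testis.

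Of 19 other genes of undifferentiated spermatogonia, 15 were tested, 12 were below 0 and 0 passed the test, with a median log2 fold change of -0.19. At an unadjusted edgeR p under 0.05, 3 of the 15 were lower (Thy1, Tspan8 and Egr3), where 1.79% of all genes were, and 0 were higher. The groups did not overlap for 2 of the 15, Thy1 and Tspan8, where the share over all genes was 2.3%. The smallest p was that of Thy1, a surface glycoprotein used to enrich stem cells and made by other cells too. Thy1 held 5, 4, 7 and 8 counts in labelled knockouts 1 to 4, against 13, 16, 14 and 13 counts in wild types 1 to 4. Its log2 fold change was -1.10 with an SE of 0.35 (edgeR unadjusted p = 0.00907, adjusted p = 1.00). Tspan8, a tetraspanin, had log2 -0.70 with an SE of 0.23, and Egr3, a zinc finger factor, -0.29 with an SE of 0.12. The GDNF receptor genes Gfra1 and Ret had log2 fold changes of -0.11 with an SE of 0.15 and -0.31 with an SE of 0.22.

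Other genes of differentiating spermatogonia were centred on 0. All 11 were tested, 4 were below 0, 0 passed, and the median was 0.03, with the meiotic cohesin gene Rec8 at the smallest p (0.363 in edgeR, log2 0.19 with an SE of 0.20). Kit, the receptor that marks differentiating spermatogonia, had log2 -0.12 with an SE of 0.21. The 4 below 0 were Kit, Stra8, Dnmt3a and Prss50. In wild types the 11 genes summed to 3090 to 3450 CPM, above the spermatocyte markers at 1720 to 2050 CPM, while Kit averaged 39.0 CPM. The part of later germ cells in the values of this list was not tested. Among 14 niche signals, 12 were below 0 with a median of -0.12 and 0 passed. The smallest p was that of Kitl, the Kit ligand from Sertoli cells, which had 22.2, 22.2, 30.9 and 24.4 CPM in labelled knockouts 1 to 4, against 32.0, 40.8, 35.5 and 32.6 CPM in wild types 1 to 4. Its log2 fold change was -0.50 with an SE of 0.13 (edgeR adjusted p = 0.948). Kitl and the chemokine gene Cxcl12 were the 2 of 14 whose groups did not overlap (2.3% of all genes) and the 2 that were lower at an unadjusted edgeR p under 0.05 (1.79% of all genes). Cxcl12 had log2 -0.54 with an SE of 0.24. Tspan8, Egr3 and Cxcl12 were named after their values were seen.

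Further lists gave these medians: spermatocyte 0.02, round spermatid 0.08, elongating spermatid 0.13, Sertoli -0.04, Leydig -0.34, peritubular myoid 0.23, endothelial -0.22, macrophage -0.22 and epididymal and rete epithelium 0.06 (4 of its 16 genes tested). No gene of these lists passed edgeR's test, and DESeq2 called 1 Leydig gene, Hsd3b1, lower. At an unadjusted edgeR p under 0.05, the Sertoli marker Sox9 was higher (log2 0.48 with an SE of 0.13), where 1.25% of all genes were. The Sertoli marker Shbg (log2 -0.76 with an SE of 0.32) and Hsd3b1 were lower, where 1.79% of all genes were. The groups did not overlap for Sox9 and Hsd3b1, where the share over all genes was 2.3%. Shbg was named after its values were seen.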

How the data were processed

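RNA from adult testis was sequenced in 8 libraries, 4 a genotype. The deposited values are whole-number counts per Ensembl gene, not normalized by the authors. The submitters' processing notes name the mouse builds GRCm39 and mm39 and the tools Trimmomatic, STAR, featureCounts and DESeq2; the sources used here give no version, annotation release or strand setting.

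Symbols matched 52073 of 56748 identifiers. After filterByExpr (minimum count 10, minimum total 15), 21805 genes were scaled by TMM and fitted in edgeR 4.0.16 (with limma 3.58.1 under R 4.3.3) by its quasi-likelihood test. There were no covariates, and Benjamini-Hochberg adjustment covered all genes tested. SEs are log2 fold changes over the root of the F statistic. Class scores use a prior count of 2. Exon lengths and chromosomes are from GENCODE M21 (GRCm38), so no coordinates of the authors' build are given, and promoters are from RefSeq. Counting intervals are exact Poisson (95%) and cover counting error only. For a count of 0 in labelled knockout 2 the upper limit is 0.178 CPM. The floor of 3 counts is a separate setting, at 0.145 CPM in that library.

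The members and the 16 lists were chosen with earlier results of these data known. Values in every library were printed for untested members, for members past any threshold, and in each class for the highest and lowest fold change and the highest level per length. Other genes described in full are said to have been chosen after their values were seen. Alternatives were RLE scaling, other filters, limma-voom (also with sample weights), DESeq2 1.42.0, a replicate block and leaving out each library. The scripts were tested on simulated data. 0 columns were left without a sample.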

Additional observations from a re-analysis of the deposited data

Results flagged for a closer look

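In 4 of 66 groups of 4 libraries looked at, 1 library lay farther from the other 3 than Dixon's critical value for 4 values allows, as a share of the group's range, and chance alone would give about 1 in 20 groups, or 3.3. Cdh1 stood at 2.66 CPM (54 counts) in labelled knockout 3, with the other labelled knockouts at 0.902 to 1.06 CPM. Taf4b stood at 47.3 CPM in wild type 2, with the other wild types at 39.4 to 40.3 CPM. Itga6 stood at 25.2 CPM in wild type 2, with the other wild types at 20.2 to 20.5 CPM. Dmrt1 stood at 36.5 CPM in wild type 4, with the other wild types at 31.4 to 31.9 CPM.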

How the results depend on the processing

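Under 16 alternatives, 0 members passed the adjusted threshold in any. Of 459 member fold changes recomputed, 418 kept their direction and 41, in 9 members, changed sign. The 9 moved across 0 when single libraries were left out, with log2 fold changes from -0.51 to 0.21 for Cdh1, -0.22 to 0.05 for Dmrt1, -0.20 to 0.12 for Elavl2, -0.22 to 0.18 for Itga6, -0.19 to 0.36 for Lhx1, -0.31 to 0.13 for Nanos3, -0.07 to 0.11 for Rhox13, -0.17 to 0.16 for Sohlh2 and -0.35 to 0.89 for Utf1. Signs also changed without the low-count filter for Rhox13 (0.00) and Cdh1 (0.00); with limma-voom for Nanos3 (0.07), Sohlh2 (0.00), Rhox13 (0.00) and Cdh1 (-0.01); and with sample weights for Nanos3 (0.11), Sohlh2 (-0.14), Rhox13 (-0.08), Itga6 (-0.14) and Cdh1 (-0.31). Leaving out labelled knockouts 3 and 4 together, chosen after seeing the data, gave Nanos3 0.02, Elavl2 0.05, Sohlh2 -0.09, Rhox13 -0.07, Itga6 -0.17 and Cdh1 -0.50.

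The stem median, -0.13, was -0.24 with sample weights, -0.22 without labelled knockouts 3 and 4, and -0.26 to -0.09 leaving out single libraries; by the same step the progenitor median ran from -0.42 to -0.09, the differentiating from -0.21 to 0.03 and the surface and cell cycle from -0.22 to 0.15. Over all genes, 4 were called higher and 0 lower; these counts were 16 and 10 without the filter, 23 and 23 with DESeq2, 9 and 5 with sample weights, 82 and 52 without labelled knockouts 3 and 4, and 3 to 23 higher and 0 to 24 lower leaving out single libraries. The cause was not tested.

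The replicate numbers are not known to pair libraries: correlations of the deviations of same-numbered libraries were 0.0902, 0.0443, -0.0263 and 0.0305, and labelled knockouts 3 and 4 did not correlate best with their own number. With the number as a block, 0 members and 4 genes were called, all higher, and Cdh1 had -0.03. A filter at a mean of 1 CPM left 24 members. Depth limits 10 members, whose mean was under 50 counts.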
